A study of Mus musculus with 2 samples.

Results

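The Ndrg family of mouse (N-myc downstream regulated genes) has 4 members, Ndrg1, Ndrg2, Ndrg3 and Ndrg4, and the members were chosen by gene symbol, with earlier results of these data known, not selected on a threshold. Their estimated transcript counts, which the choice also draws on, are therefore a description. They accounted for 4 of 23329 genes and 7 of 30383 transcripts. Ndrg1 was listed with 1 transcript and each of the other members with 2. RNA of the synaptosome fraction of C57BL/6 wild-type (WT) whole brain was compared with RNA of the total homogenate of such brain, 1 library each, and the series title gives the aim as finding mRNAs enriched at synapses. Synaptosomes are resealed nerve endings, often with a piece of the postsynaptic membrane. The homogenate was made in a sucrose buffer and cleared of nuclei at low speed, and the layer between 3% and 10% of a Percoll gradient was collected as the synaptosome fraction. Both sample titles carry the codes WT1 and CT10, and the labels do not explain CT10. No treatment, age or number of animals is given in the labels, and the fraction is an enrichment and not a pure preparation.

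Ndrg proteins share an alpha/beta hydrolase fold but are thought to have no hydrolase activity, and the family is named for Ndrg1, whose mRNA is repressed by N-myc. In brain, Ndrg1 is made by myelinating glia, and loss of NDRG1 in humans causes a demyelinating neuropathy. Ndrg2 is widely used as a marker of astrocytes. Ndrg4 is made mainly by neurons and in heart, and Ndrg3 has been studied in human cells as a protein that is broken down in the presence of oxygen and is stabilised by lactate.

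The members share a gene structure, which shows which bases tell their transcripts apart. Transcripts without a cassette exon (an exon that is kept in some mRNAs of a gene and left out of others) held in all 4 genes a run of 7 exons of 106, 121, 63, 61, 87, 57 and 104 bases. After 1 exon of varied size, 57 bases in Ndrg1, 45 in Ndrg2, 66 in Ndrg3 and 57 in Ndrg4, a run of 4 exons of 52, 48, 36 and 52 bases followed. Over the 787 bases of these exons, pairs of members were identical at 63.9% of bases for Ndrg1 and Ndrg2 and at up to 71.2% for Ndrg1 and Ndrg4. The most alike exon was the last of the run, which is coding in all members. It is shown for 1 transcript of each gene, from the GENCODE M21 transcripts on GRCm38, the assembly of the files' mm10, with capitals for the 40 of 52 bases that all members have in common.
Ndrg1, chr15:66933864-66933915, minus strand: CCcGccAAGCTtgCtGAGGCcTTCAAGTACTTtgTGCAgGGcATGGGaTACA
Ndrg2, chr14:51906513-51906564, minus strand: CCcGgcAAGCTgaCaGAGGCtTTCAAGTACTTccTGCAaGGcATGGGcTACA
Ndrg3, chr2:156931216-156931267, minus strand: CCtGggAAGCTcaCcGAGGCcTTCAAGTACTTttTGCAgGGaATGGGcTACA
Ndrg4, chr8:95711093-95711144, plus strand: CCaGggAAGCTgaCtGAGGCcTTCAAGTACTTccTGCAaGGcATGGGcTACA
In this exon Ndrg2 and Ndrg4 were identical at 48 of 52 bases. The longest exact match between whole transcripts of different members was 33 bases, again between Ndrg2 and Ndrg4, and every other pair had at most 21. All were shorter than the 100-base reads. A search of the deposited gene coordinates returned no other gene overlapping a member, but coordinates not written as single numbers would have been skipped.

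Each of the 3 genes with a pair of transcripts differed between them by a single cassette exon, and these exons carry the isoform results. They are shown with 15 bases of each neighbouring exon, the cassette exon in capitals, as RNA-sense DNA from the same GENCODE transcripts; every base shown is coding.
Ndrg2, chr14:51911086-51911127, minus strand: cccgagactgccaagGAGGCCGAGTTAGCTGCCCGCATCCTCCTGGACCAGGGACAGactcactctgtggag
Ndrg3, chr2:156929932-156929970, minus strand: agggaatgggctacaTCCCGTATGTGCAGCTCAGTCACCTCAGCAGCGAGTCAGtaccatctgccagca
Ndrg4, chr8:95712325-95712363, plus strand: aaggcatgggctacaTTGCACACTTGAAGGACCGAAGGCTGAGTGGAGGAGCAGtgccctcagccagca
The Ndrg2 exon has 42 bases and is the third of 16 exons, near the start of the coding sequence. The Ndrg3 and Ndrg4 exons have 39 bases each, and both lie directly after the shared 52-base exon and directly before the last exon. The neighbouring bases shown were identical at 25 of 30 positions between Ndrg3 and Ndrg4, and the cassette exons themselves at 18 of 39. All 3 lengths are multiples of 3, so that inclusion keeps the reading frame. The 2 listed transcripts of each gene are a part of those known: the RefSeq table of GRCm38.p6 lists 14 curated mRNAs for Ndrg2, 6 for Ndrg3, 15 for Ndrg4 and 1 for Ndrg1. Reads of unlisted forms could be assigned only to the listed ones.

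**Figure D1:**
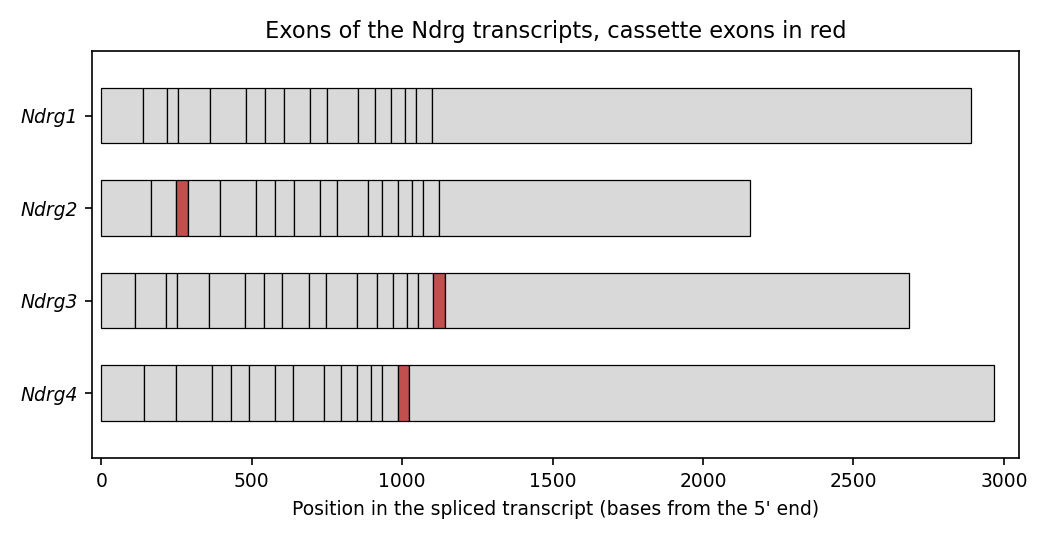
Exons of 1 transcript of each Ndrg gene, drawn to scale as position in the spliced transcript in bases from the 5′ end; boxes are exons and red boxes are cassette exons. The 42-base exon of Ndrg2 sits near the 5′ end, and the 39-base exons of Ndrg3 and Ndrg4 sit at matching places before the last exon.

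The libraries had 13709528 estimated counts for the synaptosome fraction and 15210838 for the homogenate. With no replicate, every ratio compares these 2 libraries, intervals are exact 95% Clopper-Pearson intervals of counting error unless stated otherwise, and no p-value is given. Counts were scaled with TMM, which sets the typical gene to no change, and a gene or transcript counted as higher or lower when it differed at least 2-fold and its interval excluded no change. In a ratio of a fraction to a homogenate, the place of an mRNA within cells and the mix of cell material collected cannot be told apart.

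Ndrg2 was the most abundant member in the synaptosome fraction, and Ndrg4 in the homogenate. Levels between genes were compared as the deposited TPM, which is per transcript length. Ndrg2 had 4746 TPM in the synaptosome fraction, against 1089 TPM in the homogenate. Ndrg4 had 711 TPM in the synaptosome fraction, against 1714 TPM in the homogenate. Ndrg2 thus stood 6.67 times above Ndrg4 in the synaptosome fraction and at 0.635 of it in the homogenate.

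Ndrg3 had 384 TPM in the synaptosome fraction and 711 TPM in the homogenate. Ndrg1 had 103 TPM in both. The order in the synaptosome fraction was Ndrg2, Ndrg4, Ndrg3, Ndrg1, and in the homogenate Ndrg4, Ndrg2, Ndrg3, Ndrg1. Ndrg2 made up 79.8% of the family's summed TPM of 5944 in the synaptosome fraction, against 30.1% of 3617 in the homogenate. The Ndrg4 part was 11.97% in the synaptosome fraction and 47.4% in the homogenate. Ndrg2 was in place 10 of all genes by TPM in the synaptosome fraction and in place 87 in the homogenate, while Ndrg4 was in place 211 in the synaptosome fraction and in place 32 in the homogenate.

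**Figure D2:**
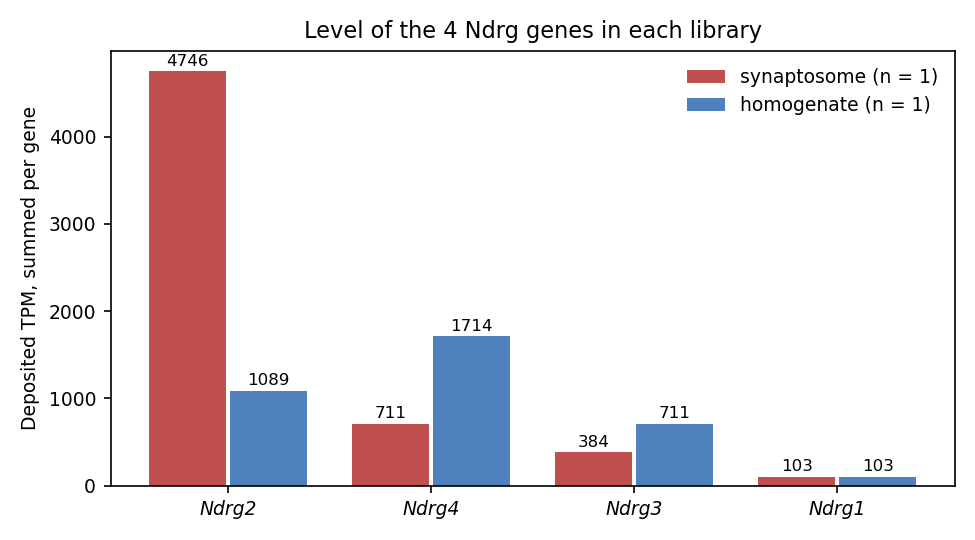
Deposited TPM summed per gene (vertical axis) for the 4 Ndrg genes, with the synaptosome library in red and the homogenate library in blue, 1 library each. Ndrg2 is the tallest in the synaptosome fraction at 4746 TPM and Ndrg4 in the homogenate at 1714 TPM.

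Ndrg2, the astrocyte member, had 57341 counts in the synaptosome fraction and 14141 in the homogenate. Its log2 ratio was 2.66 (2.64 to 2.69), a level 6.33-fold higher in the synaptosome fraction, and it took place 26 from the top among the 14113 genes tested. It was the 1 member of 4 past the rule as higher, where 12.9% of all genes tested were, and 0 of 4 members passed as lower, where 8.96% of all genes tested did. Under every scaling tried it stayed past the rule, with log2 ratios of 2.12 to 2.69. The gene lies at chr14:51905271-51913488 on the minus strand.

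Ndrg1, the myelinating glia member (chr15:66929318-66969641, minus strand), had 1716 counts in the synaptosome fraction and 1845 in the homogenate. Its log2 ratio was 0.54 (0.44 to 0.63), or 1.45-fold, which did not reach 2-fold. Scaling by library totals instead of TMM shifted all log2 ratios by -0.49, and the Ndrg1 ratio was then 0.05, while as TPM it was -0.00. No direction relative to the homogenate can therefore be given for Ndrg1 without naming the scaling.

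Ndrg3 (chr2:156927342-156992111, minus strand) had 5830 counts in the synaptosome fraction and 11623 in the homogenate. Its log2 ratio was -0.35 (-0.40 to -0.31), or 1.28-fold lower, short of the rule under every scaling. Ndrg4, the neuronal member (chr8:95703037-95715119, plus strand), had 12139 counts in the synaptosome fraction and 31462 in the homogenate. Its log2 ratio was -0.73 (-0.76 to -0.70), or 1.66-fold lower, short of the rule. Under library totals it was -1.22 and as TPM -1.27, past the rule as lower in both.

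Differences between members do not depend on the scaling, since any factor is common to all genes of a library. The ratio of Ndrg2 was 10.5-fold above that of Ndrg4 (counting interval 10.2 to 10.8), 8.08-fold above that of Ndrg3 (7.79 to 8.38) and 4.36-fold above that of Ndrg1 (4.07 to 4.67). Ndrg1 stood 2.41-fold above Ndrg4 (2.25 to 2.58) and 1.85-fold above Ndrg3 (1.72 to 1.99). Ndrg3 and Ndrg4 were the closest pair, 0.38 apart on the log2 scale (0.32 to 0.43). All 6 differences were larger than counting error, and their spread between preparations is unknown. The median log2 ratio of the members was 0.09, beside -0.01 for all genes tested.

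**Figure D3:**
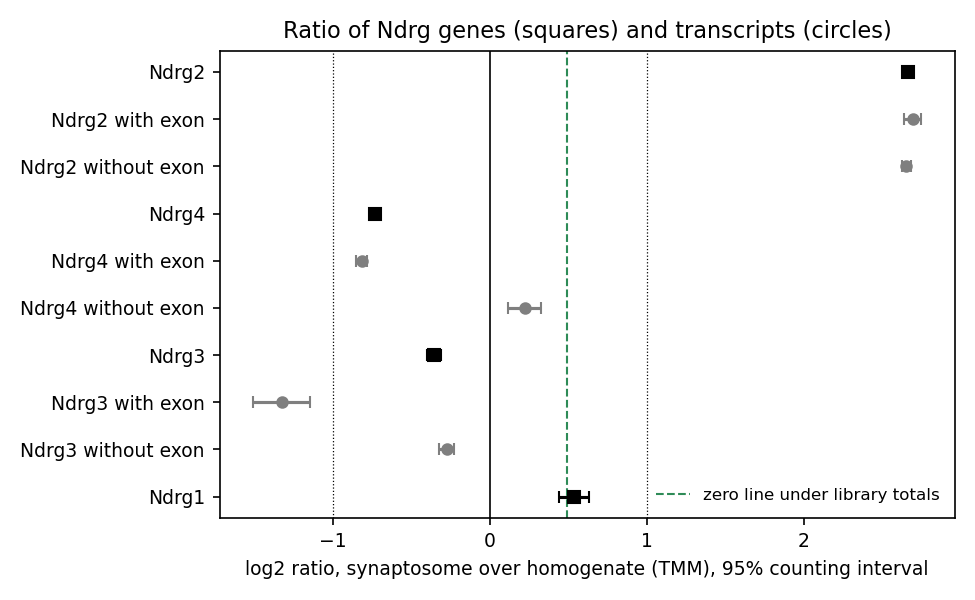
Log2 ratio of synaptosome over homogenate after TMM scaling (horizontal axis) with 95% counting intervals for the 4 Ndrg genes (squares) and the 6 transcripts of Ndrg2, Ndrg3 and Ndrg4 (circles). Dotted lines mark 2-fold, and the dashed line marks where no change lies under library totals; Ndrg2 stands at 2.66 and the Ndrg3 transcript with the exon at -1.32.

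Both Ndrg2 transcripts were higher in the synaptosome fraction by about the same factor. The transcript with the 42-base exon (NM_013864) had 13209 counts in the synaptosome fraction and 3190 in the homogenate, a log2 ratio of 2.69 (2.64 to 2.75). The transcript without it (NM_001145959) had 44132 counts in the synaptosome fraction and 10951 in the homogenate, a log2 ratio of 2.65 (2.62 to 2.68). The exon was in 23.0% of the gene's counts in the synaptosome fraction (22.7% to 23.4%), against 22.6% in the homogenate (21.9% to 23.3%). The intervals overlapped, and the difference of 0.48 percentage points had an interval of -0.30 to 1.247.

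The Ndrg3 transcript with the 39-base exon was the lowest of the 7. It (NM_180956) had 312 counts in the synaptosome fraction and 1219 in the homogenate, a log2 ratio of -1.32 (-1.51 to -1.14), or 2.50-fold lower. The more abundant transcript without the exon (NM_013865) had 5518 counts in the synaptosome fraction and 10404 in the homogenate, a log2 ratio of -0.27 (-0.32 to -0.22). The exon was thus in 5.35% of the gene's counts in the synaptosome fraction (4.79% to 5.96%), against 10.5% in the homogenate (9.94% to 11.1%).

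In Ndrg4 the form with the exon was the major one. The transcript with the 39-base exon (NM_001195006) had 10787 counts in the synaptosome fraction and 29651 in the homogenate, a log2 ratio of -0.82 (-0.85 to -0.78). The one without it (NM_145602) had 1353 counts in the synaptosome fraction and 1811 in the homogenate, a log2 ratio of 0.22 (0.12 to 0.32) that became -0.27 under library totals. The exon was in 88.9% of the gene's counts in the synaptosome fraction (88.3% to 89.4%), against 94.2% in the homogenate (94.0% to 94.5%).

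Per length the 2 transcripts of each gene stood in the same order as by counts. Ndrg2 with the exon had 1076 TPM in the synaptosome fraction and 242 TPM in the homogenate, and without it 3670 TPM in the synaptosome fraction and 847 TPM in the homogenate. Ndrg3 with the exon had 20.2 TPM in the synaptosome fraction and 73.6 TPM in the homogenate. Ndrg4 without the exon had 80.2 TPM in the synaptosome fraction and 99.9 TPM in the homogenate. These minor forms of Ndrg3 and Ndrg4 were the least abundant of the 7 transcripts in both libraries, with Ndrg1 next above them.

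Expressed as odds, which do not depend on scaling, the transcript with the exon stood to the one without it at 0.483 of the homogenate's value in the synaptosome fraction for Ndrg3 (0.424 to 0.549) and at 0.487 for Ndrg4 (0.452 to 0.524). For Ndrg2 the value was 1.03 (0.983 to 1.07). By these estimated counts the Ndrg3 and Ndrg4 exons, which occupy the same place in the gene, differed in the same direction and by a like factor. The Ndrg2 exon did not differ beyond counting error. The odds intervals take the assigned counts as observed. On the few reads estimated to tell the Ndrg3 forms apart, given below, its intervals overlapped. Such an overlap is no test of the difference.

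Such differences were common in these libraries. Of the 7 Ndrg transcripts, 2 passed the rule as higher and 1 as lower, where 16.5% and 13.1% of all transcripts tested did. No share of the 6 isoforms moved by at least 10 percentage points with intervals apart, which 33.6% of isoform shares over all tested genes with several transcripts did. Among 467 genes averaging at least 1 CPM whose 2 transcripts differ by 1 cassette exon, 42.6% moved by that much. Intervals were apart in 282 of the 467. By absolute difference in points, whatever the intervals, 277 had a larger difference in inclusion than Ndrg3, 270 than Ndrg4 and 370 than Ndrg2. A fall in points is bounded by the starting share, which was 10.5% for Ndrg3 in the homogenate. The median difference of the 467 genes was 0 percentage points, with quartiles of -6.87 and 8.95. Odds of inclusion were compared in the 270 of these genes with counts for both transcripts in both libraries. They were at least 2-fold lower in the synaptosome fraction, with an interval excluding no change, in 21.1%. By the same rule they were higher in 25.6%.

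Few reads can tell the forms apart. If coverage were even and reads single, about 17 reads would touch the Ndrg3 exon and 215 the junction that skips it in the synaptosome fraction, against 65 and 405 in the homogenate. These read numbers were computed from the expected counts and not observed, so only the wider intervals add to the shares above. On such reads inclusion of the Ndrg3 exon was 5.37% (3.14% to 8.51%) in the synaptosome fraction and 10.3% (8.02% to 13.0%) in the homogenate. These intervals overlapped between 8.02% and 8.51%, and such an overlap does not by itself place the difference within counting error. For Ndrg4, with about 519 and 47 such reads in the synaptosome fraction and 1427 and 63 in the homogenate, inclusion was 88.8% (85.4% to 91.6%) in the synaptosome fraction and 94.2% (92.7% to 95.5%) in the homogenate, and the intervals stayed apart. For Ndrg2 it was 22.7% (21.3% to 24.1%) in the synaptosome fraction and 22.2% (19.6% to 25.1%) in the homogenate.

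**Figure D4:**
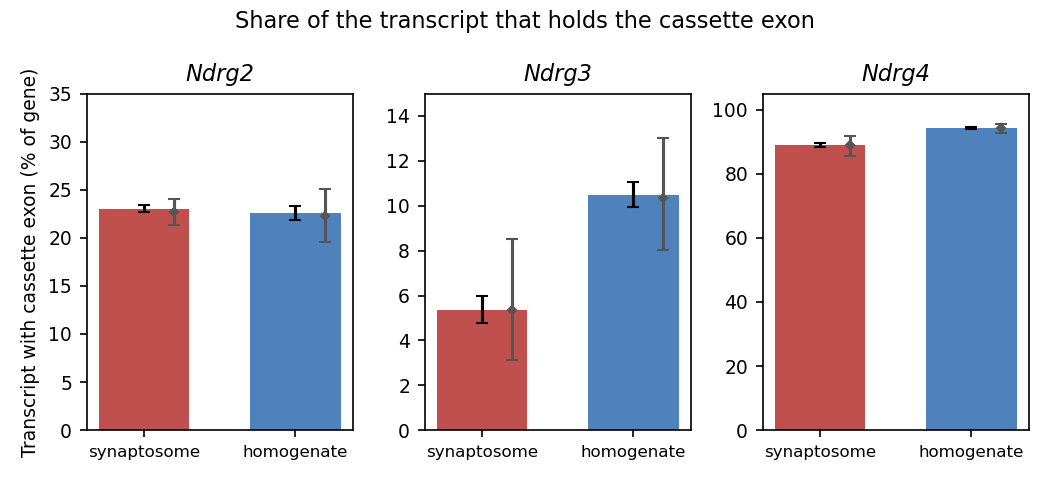
Percent of each gene's estimated counts on the transcript with the cassette exon (vertical axis, starting at 0, scale differing by panel), synaptosome in red and homogenate in blue, with 95% counting intervals in black. Grey diamonds give inclusion per length with the wider intervals of the reads that would touch the exon or the skipping junction: those of Ndrg3 overlap, those of Ndrg4 are apart, and those of Ndrg2 overlap.

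Marker genes of the cell types that make the members, and of other brain cells, also differed between the libraries. Their part in the Ndrg ratios was not tested. The counts of markers called are to be read against the 12.9% of all genes tested that were called higher and the 8.96% called lower. Of 15 astrocyte markers, 13 passed as higher and 0 as lower (median log2 ratio 1.65), 9 of them higher under library totals and as TPM, and their summed level was 27849 CPM (scaled counts) in the synaptosome fraction and 6937 CPM in the homogenate. The glutamate transporter Slc1a2 had a log2 ratio of 2.12, the glutamine synthetase Glul 2.19, the intermediate filament Gfap 2.47, the highest, and the gap junction protein Gja1 0.82, the lowest. The Ndrg2 ratio of 2.66 lay above all 15. None of the astrocyte markers was at 0 counts in either library.

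Of 15 oligodendrocyte markers, 2 passed as higher and 0 as lower, and the median was 0.09. Under library totals 3 of them were lower, as TPM 4 and with the upper quartile 1, while 2 stayed higher under each. Their summed level was 23640 CPM in the synaptosome fraction and 8095 CPM in the homogenate. Mbp alone had 17068 CPM in the synaptosome fraction and 3217 CPM in the homogenate, and without it the sums were 6572 CPM in the synaptosome fraction and 4877 CPM in the homogenate. Mbp, the myelin basic protein, had the highest log2 ratio at 2.41, and Aspa, an oligodendrocyte enzyme, the lowest at -0.99. The Ndrg1 ratio of 0.54 lay above 12 of them and below 3.

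Of 15 neuron markers, 0 passed as higher and 6 as lower, the median was -0.87, and they had a summed level of 9939 CPM in the synaptosome fraction and 10341 CPM in the homogenate. The vesicle protein Syt1 had a log2 ratio of 0.56, the fusion protein Snap25 -1.42, the lowest, and the vesicular glutamate transporter Slc17a7 0.93, the highest. The Ndrg4 ratio of -0.73 lay below 7 of them and the Ndrg3 ratio of -0.35 below 6. Of 10 microglia markers, 5 were higher and 0 lower (median 0.97, from P2ry12 at 0.05 to Tyrobp at 2.17, and 632 CPM in the synaptosome fraction against 333 CPM in the homogenate), and 3 were higher under library totals and as TPM. Of 10 endothelial markers, 0 were higher and 9 lower (median -2.96, from Slco1a4 at -3.90 to Cdh5 at -0.92, and 31.8 CPM in the synaptosome fraction against 220 CPM in the homogenate).

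**Figure D5:**
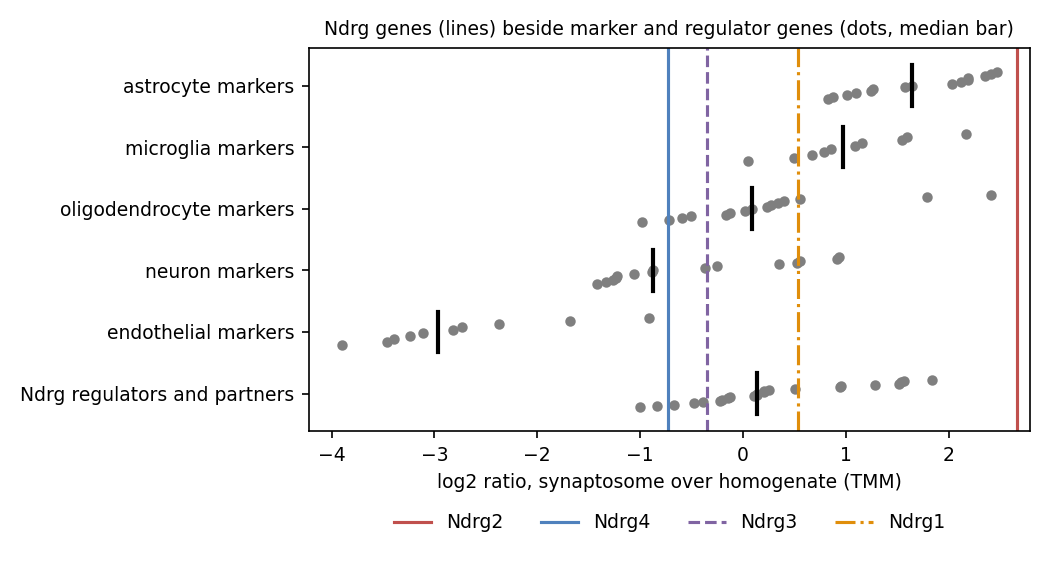
Log2 ratio of synaptosome over homogenate (horizontal axis) for the tested genes of each list (dots, with the list median as a bar) and for the 4 Ndrg genes (vertical lines). The Ndrg2 line at 2.66 lies right of every dot, and the Ndrg4 line at -0.73 lies among the neuron markers.

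Of 24 listed regulators and partners of the Ndrg family, 23 were tested. Of these, 5 passed as higher, where 12.9% of all genes tested did, and 1 as lower, where 8.96% did. The median log2 ratio was 0.14, beside -0.01 for all genes tested. Of the 5 that passed as higher, 3 act in oxygen sensing and 2 in Akt and mTOR signalling. Epas1, a hypoxia-inducible transcription factor, had 5536 counts in the synaptosome fraction and 2419 in the homogenate (log2 ratio 1.84), Vhl, which marks such factors for breakdown, 1.56, and Egln1, the prolyl hydroxylase reported to act on NDRG3 in human cells, 1.29. The kinase Akt2 had 1.54 and Prr5, a subunit of the second mTOR complex, 1.52. Rictor, the defining subunit of that complex, had 318 counts in the synaptosome fraction and 995 in the homogenate (log2 ratio -1.003) and lay at the edge of the rule. The RLE scaling placed it short of the rule.

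Other genes of this list did not pass or were not tested. Sgk1, a kinase that phosphorylates NDRG1 and NDRG2 in human cells, had 286 counts in the synaptosome fraction and 709 in the homogenate, a log2 ratio of -0.67 (-0.87 to -0.47). Gsk3a, a form of the kinase that phosphorylates NDRG1 once Sgk1 has done so, had a log2 ratio of 0.20. Mycn, the N-myc gene after which the family is named, had 48 counts in the synaptosome fraction and 134 in the homogenate, a log2 ratio of -0.84 (-1.35 to -0.35). Hif1a, a hypoxia-inducible factor, had 0.20 (0.08 to 0.33). Bves, a binding partner of Ndrg4, had 11 counts in the synaptosome fraction and 14 in the homogenate, too few to be tested.

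Genes of like abundance with the closest ratios, however far off, were named by rule, from a narrow window around each member's mean CPM, over these 2 libraries. The window sizes count all tested genes, the member itself included. For Ndrg2 the window held 13 genes, and those reported here are App, the amyloid precursor protein, with a log2 ratio of 1.89, lower by 0.77, and Scd2, a fatty acid desaturase, with 1.77, lower by 0.89. For Ndrg4 the window held 44 genes, and the closest were the chaperone Hspa8 at -0.84, the glycolytic enzyme Aldoa at -0.32 and the ubiquitin gene Ubb at -0.20. Aldoa and Ubb lay 0.41 and 0.53 above Ndrg4. For Ndrg3, with 165 genes in the window, they were Cltc, the clathrin heavy chain, at -0.34, Nsg2, a neuronal endosomal protein, at -0.36, and Cplx1, complexin, at -0.37. For Ndrg1, with 921, they were Wipi2 at 0.54, Bcr at 0.53 and Pdk2 at 0.54.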

How the data were processed

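The authors deposited, per the file headers, expected counts and TPM for each transcript of each library, posterior estimates of those counts, and 1 signal value per gene for both libraries. TPM, as deposited, is per length and sums to the same total in each library. The deposited signal was used as an alternative only. The submitters' processing notes name FastQC, TopHat 1.3.3, RSEM 1.2.5, edgeR 3.0.6 and build mm10; what each did, and how, is not stated there. Libraries were stranded mRNA, sequenced as 100-base paired or single reads; which applied is not stated in the labels.

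Here, expected counts were added up by gene symbol and rounded; 67.9% of transcript values in the synaptosome fraction and 61.4% in the homogenate were whole. TMM factors came from edgeR 4.0.16 (R 4.3.3) on all genes. The rule of size was applied to genes or transcripts averaging 1 CPM or more. Intervals are Clopper-Pearson at 95% (normal on the log scale for ratios of ratios), cover counting error only, and treat PCR copies and RSEM assignments as exact. For a difference between shares, the half-widths of the 2 share intervals were combined as the root of their summed squares, which is approximate. Other tools were Python 3.11.15, numpy 2.4.6, scipy 1.17.1 and pandas 2.3.3.

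Members and lists were chosen with earlier results of these data known. Genes named are all members and, in each list, the 2 most abundant, the highest and lowest ratio and, among regulators and partners, those called, plus 3 genes per member most like it in ratio. Sgk1, Mycn, Hif1a and Bves were named after their values were seen. Alternatives were other scalings, filters, fold rules and ways of computing isoform shares. Those added after seeing the data were posterior counts, the reads touching the exon or skipping junction, and odds. Some genes that this rule names are not reported here.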

Additional observations from a re-analysis of the deposited data

How the results depend on the processing

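With 1 library per fraction no library could be left out. No paired analysis was possible because each fraction has 1 library. Library totals and TPM put the median of all genes tested at log2 ratios of -0.50 and -0.55, against -0.01 with TMM, and the members moved with it. Under library totals the log2 ratios were 0.045 for Ndrg1, 2.17 for Ndrg2, -0.85 for Ndrg3 and -1.22 for Ndrg4. As TPM they were -0.00042, 2.12, -0.89 and -1.27. With the upper quartile Ndrg2 had 2.59, Ndrg3 -0.43 and Ndrg4 -0.81, and with RLE Ndrg2 had 2.69. The authors' deposited signal gave log2 ratios of 0.546 for Ndrg1, 2.67 for Ndrg2, -0.345 for Ndrg3 and -0.724 for Ndrg4. Each was within its counting interval and slightly above the TMM value. The signal comes from the same 2 libraries and is no independent check. Summed per gene, the posterior counts gave the same ratios as the expected counts, so they could move no member.

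Of the members, 1 gene was lower under library totals and 1 as TPM, against 0 with TMM, and 2 transcripts were lower under each, against 1. Under library totals 641 genes were higher and 3591 lower, as TPM 570 and 3872, and with a 1.5-fold rule 3399 and 2930, against 1815 and 1264. With a mean of at least 10 CPM 552 genes were lower. Transcripts higher and lower were 1416 and 4851 under library totals and 1012 and 4753 as TPM, against 2890 and 2302. Of the regulators and partners, 3 were higher and 4 lower as TPM, 3 were lower under library totals and 0 with RLE. With a 20-point rule 1718 isoform shares moved, against 2986. Differences in cassette exon share stayed within their counting intervals as shares of TPM and of posterior counts. The estimated reads touching the exon or the skipping junction were computed from the same expected counts and transcript lengths. Their inclusion therefore matches the share of TPM closely by construction and is no separate check. Depth limits the isoform results of Ndrg3, whose rarer form had 312 counts in the synaptosome fraction.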
